A study of Homo sapiens with 10 samples.

Results

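The comparison of miR92b_inhibitor with miRcontrol was described across all genes in BEAS2B, an immortalised line of normal human bronchial epithelial cells. It holds 4 of the 10 libraries of the series, 2 for each group, and was chosen by the group labels alone. Cells of both groups were transfected with Lipofectamine 2000 and lysed in Trizol after 48 h. The miR92b_inhibitor cells received a miR-92b inhibitor at 50 nM and the miRcontrol cells a scrambled control oligonucleotide at the same dose. The labels call the first group a knockdown of miR-92b. They name neither the arm of the hairpin that the inhibitor binds nor whether the 2 libraries of a group came from separate transfections. The p-values rest on the spread between libraries of the same group, estimated over all 5 groups of the series and partly shared over genes. That spread may be technical, and a gene whose 2 libraries disagree can still pass. The other 6 libraries (miR3124_mimic, miR200b_mimic and the 3-miRNA mixed group) entered the fit, and the 4 single-mimic libraries served as a second reference.

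A microRNA guides an Argonaute protein to messenger RNAs by pairing of its seed, the bases near its 5′ end, mostly with sites in 3′UTRs, and the bound messenger RNA is destabilised or less translated. An inhibitor is a modified antisense oligonucleotide that occupies the mature microRNA, which releases its targets. The hairpin of miR-92b gives 2 mature strands. The study's panel holds the 5p strand, miR-92b-5p, while its methods name the oligonucleotide as a miR-92b inhibitor without an arm. The 3p strand belongs to the miR-25/92 family, which is studied for its role in cell growth and tumours.

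The seeds of both strands, and the other members of the 3p family, define the words searched for in the 3′UTRs. RefSeq places the hairpin at chr1:155195177-155195272 (GRCh38.p14, plus strand). Each mature sequence is printed with bases 2 to 8, the seed, in capitals.
hsa-miR-92b-5p, chr1:155195196-155195217 (+): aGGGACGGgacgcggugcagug
hsa-miR-92b-3p, chr1:155195237-155195258 (+): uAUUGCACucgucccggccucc
hsa-miR-92a-3p, chr13:91351361-91351382 (+): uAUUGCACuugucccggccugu
hsa-miR-25-3p, chr7:100093571-100093592 (-): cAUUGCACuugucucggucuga
hsa-miR-363-3p, chrX:134169382-134169403 (-): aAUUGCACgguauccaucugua
The 3p seed is shared with 5 other human microRNAs, of which 3 are printed and miR-32-5p and miR-367-3p are not, while no other entry of the table has the seed of the 5p strand. The libraries hold poly(A) messenger RNA, so the mature strands were not measured. MIR92B and its host transcript MIR92BHG have no row in the count files, and the knockdown therefore could not be checked on its target.

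The 4 libraries held between 16773655 and 18146986 counts, and 14884 gene symbols passed the filter on low counts. Values are given as normalised CPM, counts scaled to a common library size, for both libraries of a group, and differences as log2 fold changes of miR92b_inhibitor over miRcontrol with the standard error (SE). Adjusted p-values are Benjamini-Hochberg values over all 14884 genes from edgeR's quasi-likelihood test. The raw counts of the 2 libraries of a group differed by more than sampling noise, with a chi-square of 2.67 per degree of freedom in miRcontrol and 1.97 in miR92b_inhibitor. Markers of other cell types were scarce: 8 of 10 immune markers did not pass the filter and had at most 2 counts in any of the 4 libraries (MS4A1, HLA-DRA and NKG7 among those at 0), and the 2 endothelial markers that passed summed to between 0.41 and 0.60 CPM. Of 18 epithelial markers 13 were tested, summing to 2354 and 2299 CPM in miRcontrol and 2256 and 2167 CPM in miR92b_inhibitor, while KRT14 and GRHL2 had 0 counts in all 4.

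At an adjusted p under 0.05 and a 2-fold or larger difference, 147 genes were higher in miR92b_inhibitor (0.988% of those tested) and 138 were lower (0.927%). At any fold, 2604 genes were higher (17.5%) and 2709 were lower (18.2%), with a median size of 0.30 on the log2 scale among the 5313. With an unadjusted p under 0.05 and a 2-fold difference, the counts were 185 higher (1.24%) and 206 lower (1.38%). Most differences were thus below 2-fold, and the median over all genes was -0.0061. Inflammatory cytokines, NF-κB pathway members, matrix metalloproteinases and immediate early genes were among the genes that rose, and cholesterol and fatty acid synthesis genes among those that fell. The plot of fold change against level shows called genes over most of the range of levels.

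**Figure D1:**
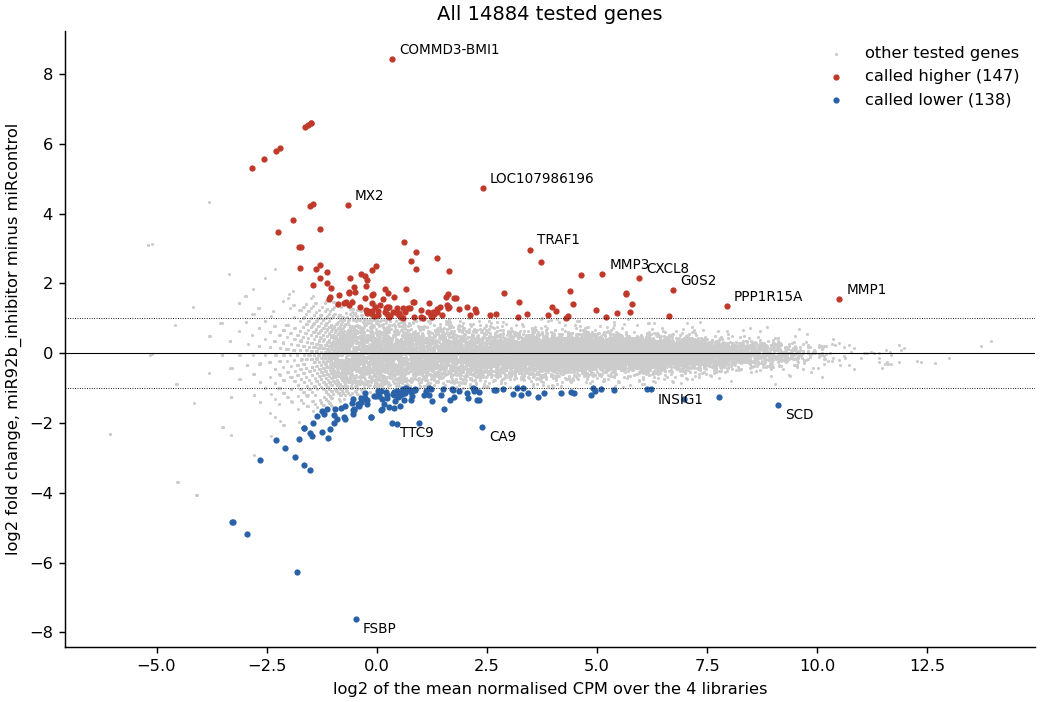
Log2 fold change of miR92b_inhibitor over miRcontrol (y axis) against the log2 of the mean normalised CPM over the 4 libraries (x axis), 1 point a gene. Red and blue points are the 147 higher and 138 lower genes at the 2-fold threshold, dotted lines mark a 2-fold change, and genes with 0 counts in all 4 libraries are not drawn. Most of the largest differences are at low levels, while MMP1 and SCD stand out at high levels.

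Cytokine and NF-κB genes rose together. NF-κB is a family of transcription factors that inhibitor proteins hold in the cytoplasm until cytokine or stress signals release it, and in airway epithelium it drives chemokines that recruit neutrophils. Of 23 tested members of the list, 17 rose and 0 fell at an adjusted p under 0.05, 11 of them by 2-fold or more, and the median was 0.98. By background, 17.5% of all genes rose. The 3 members that did not pass the filter had 0 counts in all 4 libraries.

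CXCL8, the neutrophil chemokine interleukin 8 (chr4:73740569-73743716), measured 24.4 and 21.7 CPM in miRcontrol and 90.3 and 113 CPM in miR92b_inhibitor. Both treated libraries lay above both controls, and the rise was 2.14 on the log2 scale (SE 0.078, edgeR adjusted p = 2.26e-26). IL24, a cytokine of the IL-10 family (chr1:206897443-206904139), measured 3.72 and 3.64 CPM in miRcontrol and 21.6 and 23.8 CPM in miR92b_inhibitor, a rise of 2.62 (SE 0.13, edgeR adjusted p = 4.98e-21). The libraries of each group were close to each other for this gene. Interleukin 1 was higher in both forms. IL1A measured 8.24 and 9.97 CPM in miRcontrol and 21.5 and 23.8 CPM in miR92b_inhibitor, and IL1B 20.1 and 17.5 CPM in miRcontrol and 42.3 and 46.8 CPM in miR92b_inhibitor, which are rises of 1.32 (SE 0.11, edgeR adjusted p = 4.56e-14) and 1.25 (SE 0.083, edgeR adjusted p = 1.11e-16). The level of IL6 was low, at 1.72 and 1.31 against 3.97 and 3.39 CPM, and rose by 1.27 (SE 0.26, edgeR adjusted p = 0.000138). The growth factor genes CSF2 and CSF3 were lower still. CSF2, which encodes GM-CSF, had 13 and 2 counts in miRcontrol and 47 and 70 in miR92b_inhibitor and rose by 2.89 (SE 0.42, edgeR adjusted p = 2.73e-07). CSF3, which encodes G-CSF, had 1 and 0 counts in miRcontrol and 8 and 16 in miR92b_inhibitor, a ratio of normalised levels of 23.2 with a 95% counting interval from 3.78 to 954. The controls held a single count of this gene.

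The chemokine genes next to CXCL8 on chromosome 4 moved less. CXCL2 measured 1.14 and 2.21 against 3.97 and 4.76 CPM and rose by 1.39 (SE 0.30, edgeR adjusted p = 0.000188), and CXCL1 measured 13.5 and 12.2 against 23.7 and 27.0 CPM and rose by 0.98 (SE 0.11, edgeR adjusted p = 4.11e-10). CXCL3, CXCL5 and CXCL6 had positive values of 0.86, 0.68 and 0.76 that did not pass the test, and CCL2, a monocyte chemokine, was at 0.15 without passing. IL11 rose by 0.85 (SE 0.052, edgeR adjusted p = 3.99e-18) and the adhesion molecule gene ICAM1 by 0.65 (SE 0.046, edgeR adjusted p = 1.04e-15). PTGS2, the inducible cyclooxygenase, had a negative value of -0.46 that did not pass.

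Among regulators of the pathway, BIRC3, a ubiquitin ligase of the tumour necrosis factor receptor complex, measured 24.6 and 22.4 CPM in miRcontrol and 71.9 and 83.0 CPM in miR92b_inhibitor and rose by 1.72 (SE 0.074, edgeR adjusted p = 1.6e-23). TRAF1, an adaptor of the same receptors (chr9:120902393-120929171), measured 2.12 and 2.98 CPM in miRcontrol and 18.7 and 20.9 CPM in miR92b_inhibitor. Its rise of 2.96 (SE 0.16, edgeR adjusted p = 5.24e-20) was larger than that of any other gene of this paragraph. The inhibitors TNFAIP3 and NFKBIA rose by 1.03 (SE 0.076, edgeR adjusted p = 3.32e-15) and 0.49 (SE 0.066, edgeR adjusted p = 5.7e-08), and the subunit gene RELB by 1.01 (SE 0.099, edgeR adjusted p = 1.93e-11). NFKB1 rose by 0.21, whereas NFKB2 was at 0.10 and did not pass. BCL2A1, an anti-apoptotic member of the BCL2 family, measured 0.515 and 0.418 against 3.15 and 2.79 CPM and rose by 2.65 (SE 0.37, edgeR adjusted p = 1.39e-07). PTX3, a secreted pattern recognition protein, measured 24.0 and 23.9 against 76.7 and 78.7 CPM and rose by 1.70 (SE 0.069, edgeR adjusted p = 1.99e-24).

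**Figure D2:**
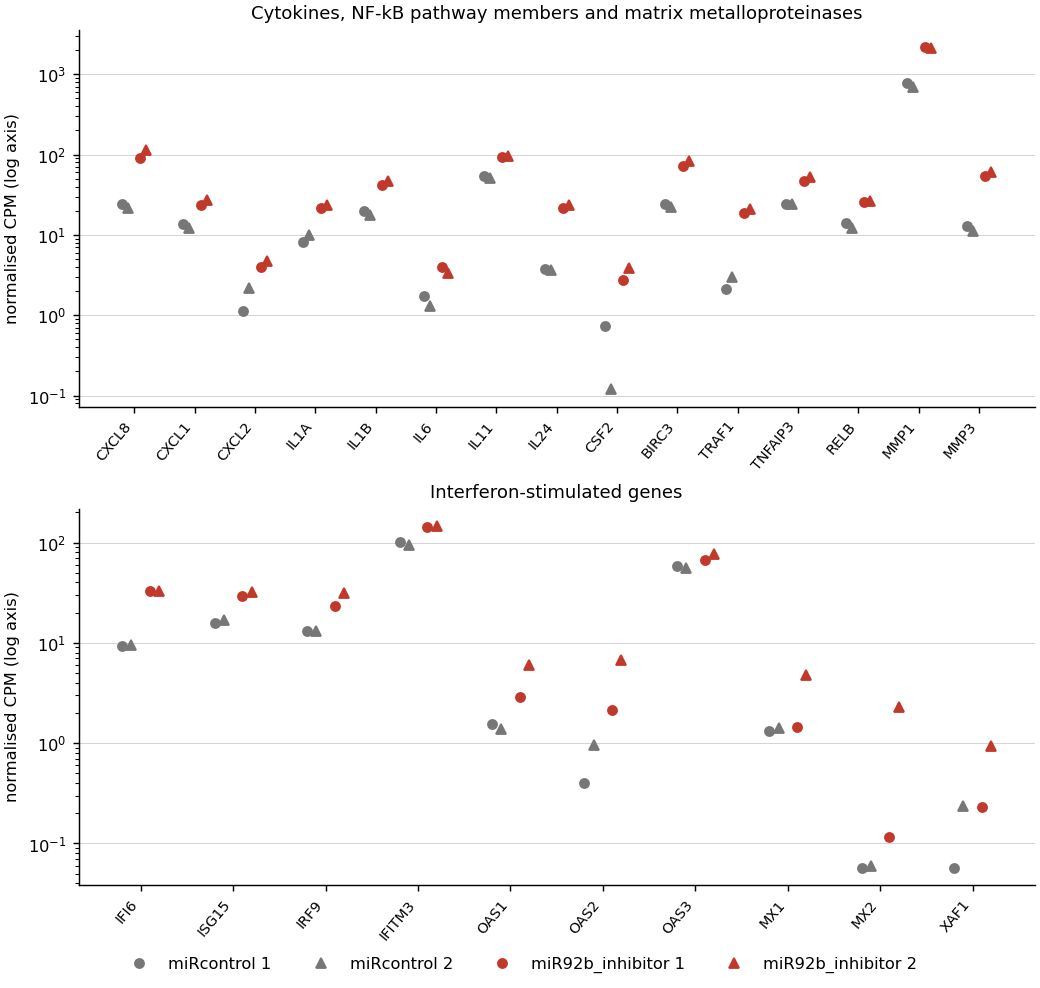
Normalised CPM on a log axis in each of the 4 libraries for cytokine, NF-κB and metalloproteinase genes (upper panel) and interferon-stimulated genes (lower panel); grey marks miRcontrol, red marks miR92b_inhibitor, circles are library 1 and triangles library 2. In the upper panel both red points lie above both grey points for every gene drawn, while in the lower panel the second inhibitor library lies well above the first for OAS1, OAS2, MX1, MX2 and XAF1.

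Promoters of cytokine genes are shown because the list moved together and NF-κB has a known binding motif. RefSeq promoters (GRCh38.p14, 250 bases before to 50 after the start) were matched for 19 of the 23 tested members, and the κB word GGANTTTCC was searched on both strands. It was found in 11 of the 19 (57.9%) and in 167 of 10434 promoters of tested genes (1.60%). The 11 are CXCL1, CXCL2, CXCL3, CXCL5, CXCL6, CXCL8, IL6, TNFAIP3, NFKBIA, ICAM1 and NFKB1, of which the test did not call CXCL3, CXCL5 and CXCL6. The capitals mark the word.
CXCL8, chr4:73740319-73740618 (+): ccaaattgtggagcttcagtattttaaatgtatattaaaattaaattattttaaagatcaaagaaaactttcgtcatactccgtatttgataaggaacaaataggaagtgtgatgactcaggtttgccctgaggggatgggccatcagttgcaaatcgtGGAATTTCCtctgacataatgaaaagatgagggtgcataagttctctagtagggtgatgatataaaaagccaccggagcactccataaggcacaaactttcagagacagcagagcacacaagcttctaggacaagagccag
CXCL1, chr4:73869143-73869442 (+): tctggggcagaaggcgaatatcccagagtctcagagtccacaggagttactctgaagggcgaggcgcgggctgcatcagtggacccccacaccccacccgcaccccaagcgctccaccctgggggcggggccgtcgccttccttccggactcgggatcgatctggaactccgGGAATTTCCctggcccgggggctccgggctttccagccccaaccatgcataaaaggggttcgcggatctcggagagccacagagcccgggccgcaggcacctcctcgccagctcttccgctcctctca
A match describes the letters in the window and is not evidence of binding in these cells. The list holds known NF-κB and cytokine genes, so its high share of the word is not read as a result of these libraries. It was chosen with earlier results of these data known, and only tested members were counted.

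Proteases and their regulators were higher more often than lower. MMP1, an interstitial collagenase (chr11:102789919-102798160), had the smallest p-value of all genes. It measured 769 and 699.9 CPM in miRcontrol and 2164 and 2140.4 CPM in miR92b_inhibitor, so that the 2 libraries of each group were close and the groups far apart, with a rise of 1.55 (SE 0.038, edgeR adjusted p = 6.97e-33). MMP3, the stromelysin next to it (chr11:102835801-102843609), measured 13.1 and 11.1 CPM in miRcontrol and 53.9 and 61.5 CPM in miR92b_inhibitor and rose by 2.26 (SE 0.10, edgeR adjusted p = 1.34e-22). MMP9, a gelatinase, had 1 and 0 counts in miRcontrol and 9 and 16 in miR92b_inhibitor, a ratio of 24.2 with a 95% counting interval from 3.96 to 992. The plasminogen system moved the same way. The urokinase receptor gene PLAUR rose by 0.68 (SE 0.045, edgeR adjusted p = 4.81e-17) and the tissue activator gene PLAT by 0.59 (SE 0.045, edgeR adjusted p = 7.67e-15). MMP14 rose by 0.44 (SE 0.036, edgeR adjusted p = 8.45e-14). In all, 12 of 23 tested members rose and 5 fell (3 without the second control library), beside 17.5% and 18.2% of all genes, among the latter MMP2 at -0.47 and the inhibitors TIMP2 at -0.39 and TIMP3 at -0.34, and the list median was 0.24.

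Interferon-stimulated genes rose as well, but much of the count came from one library. These genes encode antiviral effectors that the factor ISGF3, of which IRF9 is the DNA-binding part, switches on through the interferon-stimulated response element. Of 26 tested, 14 rose and none fell at an adjusted p under 0.05, 7 by 2-fold or more, with a median of 0.58. Among all genes 17.5% rose and 18.2% fell. IFI6, a mitochondrial antiviral protein gene, measured 9.39 and 9.49 CPM in miRcontrol and 32.7 and 32.5 CPM in miR92b_inhibitor and rose by 1.79 (SE 0.16, edgeR adjusted p = 1.28e-12). The libraries of each group agreed closely. ISG15, a ubiquitin-like modifier, had 274 and 284 counts in miRcontrol and 497 and 588 in miR92b_inhibitor and rose by 0.91 (SE 0.14, edgeR adjusted p = 5.71e-07). IRF9 measured 13.0 and 13.1 against 23.2 and 31.4 CPM and IFITM3 101 and 94.7 against 144 and 147 CPM. Their rises were 1.07 (SE 0.12, edgeR adjusted p = 4.96e-10) and 0.58 (SE 0.064, edgeR adjusted p = 4.29e-10).

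The oligoadenylate synthetase and MX genes differed between the 2 inhibitor libraries. OAS2 measured 0.401 and 0.955 CPM in miRcontrol and 2.16 and 6.79 CPM in miR92b_inhibitor, OAS1 1.55 and 1.37 against 2.86 and 6.08 CPM and MX1 1.32 and 1.43 against 1.46 and 4.76 CPM. In the first inhibitor library MX1 was close to both controls, and in the second it was well above them. Over both libraries the rises were 2.73 for OAS2 (SE 0.44, edgeR adjusted p = 2.16e-06), 1.62 for OAS1 (SE 0.31, edgeR adjusted p = 4.56e-05) and 1.19 for MX1 (SE 0.38, edgeR adjusted p = 0.011). MX2 had 1 and 1 counts in miRcontrol and 2 and 42 in miR92b_inhibitor, a ratio of 21.3 with a 95% counting interval from 5.55 to 181, and XAF1 had 1 and 4 counts in miRcontrol and 4 and 17 in miR92b_inhibitor, which overlap between the groups. Without the second inhibitor library, 8 of the 26 genes rose (among them DDX58, IFI6, IFITM1, IFITM3, IRF9, ISG15 and OAS2), the list median was 0.33, and IFIT3, MX1, MX2, OAS1, OAS3 and XAF1 were no longer called. Leaving out any other library of the 2 groups left between 12 and 15 called.

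The word of the interferon-stimulated response element, GAAA, any 2 bases and GAAA again, was found on either strand in 14 of 18 matched promoters of the list (77.8%) and in 298 of all 10434 (2.86%). The promoter of IFI6 is shown because the gene rose in both inhibitor libraries and its promoter holds the word 3 times, without overlap, marked in capitals.
IFI6, chr1:27672143-27672442 (-): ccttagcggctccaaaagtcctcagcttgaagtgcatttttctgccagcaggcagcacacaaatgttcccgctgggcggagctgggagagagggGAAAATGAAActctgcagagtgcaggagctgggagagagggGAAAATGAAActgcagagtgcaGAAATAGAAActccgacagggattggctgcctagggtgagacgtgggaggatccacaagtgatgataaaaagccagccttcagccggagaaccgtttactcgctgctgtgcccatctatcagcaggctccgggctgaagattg
Members whose promoters hold the word were called (IFI6, ISG15, IFITM3) and not called (IFIT1, DDX60, HERC5) alike. As the list holds known interferon-stimulated genes, its high share is not read as a result of these libraries. The list was chosen with earlier results known and counted over tested members.

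Immediate early genes, which growth and stress signals induce within minutes in other settings, were mostly higher 48 h after transfection. EGR1, a zinc finger transcription factor, measured 9.44 and 7.94 CPM in miRcontrol and 35.0 and 47.1 CPM in miR92b_inhibitor and rose by 2.24 (SE 0.11, edgeR adjusted p = 1.12e-20). FOS had 12 and 12 counts in miRcontrol and 31 and 58 in miR92b_inhibitor and rose by 1.83 (SE 0.34, edgeR adjusted p = 3.18e-05). Other AP-1 subunits split, since FOSL1 rose by 0.71 (SE 0.041, edgeR adjusted p = 7.39e-19) and JUN by 0.32 (SE 0.043, edgeR adjusted p = 3.68e-08), whereas JUND fell by 0.52 (SE 0.057, edgeR adjusted p = 5.21e-10). IER2 rose by 0.86 (SE 0.054, edgeR adjusted p = 1.04e-17). Counting all 14 tested members, 9 rose, 3 fell and the median was 0.46. By background, 17.5% of all genes rose and 18.2% fell. Feedback regulators of the ERK pathway rose in part: DUSP6 rose by 0.93 (SE 0.087, edgeR adjusted p = 5.23e-12), ETV4 by 0.81 (SE 0.087, edgeR adjusted p = 2.16e-10), DUSP5 by 0.61 (SE 0.071, edgeR adjusted p = 1.46e-09) and PHLDA1 by 0.76 (SE 0.038, edgeR adjusted p = 4.98e-21). In that list of ERBB and MAPK genes, 10 of 22 rose and 4 fell, with a median of 0.19.

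PPP1R15A, a phosphatase subunit that ends the integrated stress response and is no member of the list counted here, measured 142 and 135 CPM in miRcontrol and 345 and 361 CPM in miR92b_inhibitor and rose by 1.35 (SE 0.04, edgeR adjusted p = 1.44e-29). The listed genes of this response, in which the factor ATF4 is translated when general translation slows, moved both ways. DDIT3, which encodes the factor CHOP, measured 11.6 and 12.5 against 31.5 and 32.0 CPM and rose by 1.40 (SE 0.10, edgeR adjusted p = 1.71e-15). ATF3 rose by 1.22 (SE 0.12, edgeR adjusted p = 1.43e-11), ATF4 by 0.63 (SE 0.039, edgeR adjusted p = 6.39e-18) and CEBPB by 0.86 (SE 0.054, edgeR adjusted p = 1.31e-17). Amino acid transporter genes differed in direction, with SLC3A2 up by 0.48 and SLC7A5 down at -0.34. In this list 9 of 23 rose and 7 fell, where 17.5% and 18.2% of all genes did, with a median of 0.088. Chaperones of the endoplasmic reticulum fell instead: 11 of 18 fell and 1 rose (median -0.21), among them CALR, at 1114 and 1082 against 830.2 and 792 CPM, by 0.44 (SE 0.034, edgeR adjusted p = 2.21e-14) and HSP90B1 by 0.45 (SE 0.036, edgeR adjusted p = 2.86e-14). HMOX1, the haem-degrading oxygenase, measured 28.3 and 25.7 against 58.0 and 62.4 CPM and rose by 1.16 (SE 0.077, edgeR adjusted p = 9.05e-17), and the ferritin gene FTL rose by 0.54 (SE 0.037, edgeR adjusted p = 2.61e-16). Other targets of the oxidative stress factor NRF2 fell, such as PGD at -0.43 and TXNRD1 at -0.25. The whole list gave 7 higher and 7 lower of 19, with 3 higher without the second control or the second inhibitor library.

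Cholesterol synthesis and uptake genes fell almost without exception. Cells make cholesterol from acetyl-CoA through the mevalonate pathway and take it up from lipoproteins, and the membrane-bound factor SREBP2 switches on both when sterols are low. All 24 genes of the list were tested. At an adjusted p under 0.05, 23 fell and none rose, where 18.2% of all genes fell, and the median was -0.69. The exception was HSD17B7, at -0.27, which did not pass. The summed level of the list was 3015 and 3127 CPM in miRcontrol and 1976 and 1840 CPM in miR92b_inhibitor.

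STARD4, a carrier of cholesterol between membranes (chr5:111496033-111512535), measured 59.0 and 54.7 CPM in miRcontrol and 26.5 and 28.1 CPM in miR92b_inhibitor and fell by 1.06 on the log2 scale (SE 0.067, edgeR adjusted p = 2.29e-17). INSIG1, which retains the SREBP complex in the endoplasmic reticulum, measured 96.0 and 104 CPM in miRcontrol and 50.5 and 46.9 CPM in miR92b_inhibitor and fell by 1.04 (SE 0.057, edgeR adjusted p = 1.03e-19). Both were among the 4 genes of the list that fell by 2-fold or more. SREBF2, the gene of SREBP2 itself, fell by 0.75 (SE 0.046, edgeR adjusted p = 4.15e-18). Along the pathway, HMGCS1, at its entry, fell by 0.90 (SE 0.054, edgeR adjusted p = 3.25e-18). DHCR7, an enzyme of its last steps, fell by 0.83 (SE 0.055, edgeR adjusted p = 5.91e-17). For each gene of this paragraph the 2 treated libraries lay below the 2 controls.

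Fatty acid synthesis genes, a list drawn up after the values were seen, showed the same direction, with 11 of 12 lower and none higher. Over all genes 18.2% were lower and 17.5% higher. The cholesterol list, too, was chosen with earlier results of these data known. SCD, the stearoyl-CoA desaturase that makes monounsaturated fatty acids (chr10:100347233-100364826), measured 765 and 856 CPM in miRcontrol and 312 and 267 CPM in miR92b_inhibitor. It fell by 1.49 (SE 0.048, edgeR adjusted p = 2.7e-28), the smallest p-value among the genes lower by 2-fold or more. FADS2, a desaturase of polyunsaturated fatty acids, measured 173 and 188 CPM in miRcontrol and 75.7 and 68.7 CPM in miR92b_inhibitor and fell by 1.32 (SE 0.054, edgeR adjusted p = 2.53e-24). SREBF1, the gene of SREBP1, measured 88.4 and 99.7 against 45.8 and 47.1 CPM and fell by 1.02 (SE 0.064, edgeR adjusted p = 1.51e-17). FASN, the fatty acid synthase, measured 667 and 713 against 379 and 362 CPM and fell by 0.90 (SE 0.04, edgeR adjusted p = 5.66e-23). ACACA had a value of -0.50 that did not pass. The word CACCCCAC of the sterol regulatory element was found in 1 of 17 matched promoters of the cholesterol list, that of SREBF2, and in 272 of all 10434 (2.61%).

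**Figure D3:**
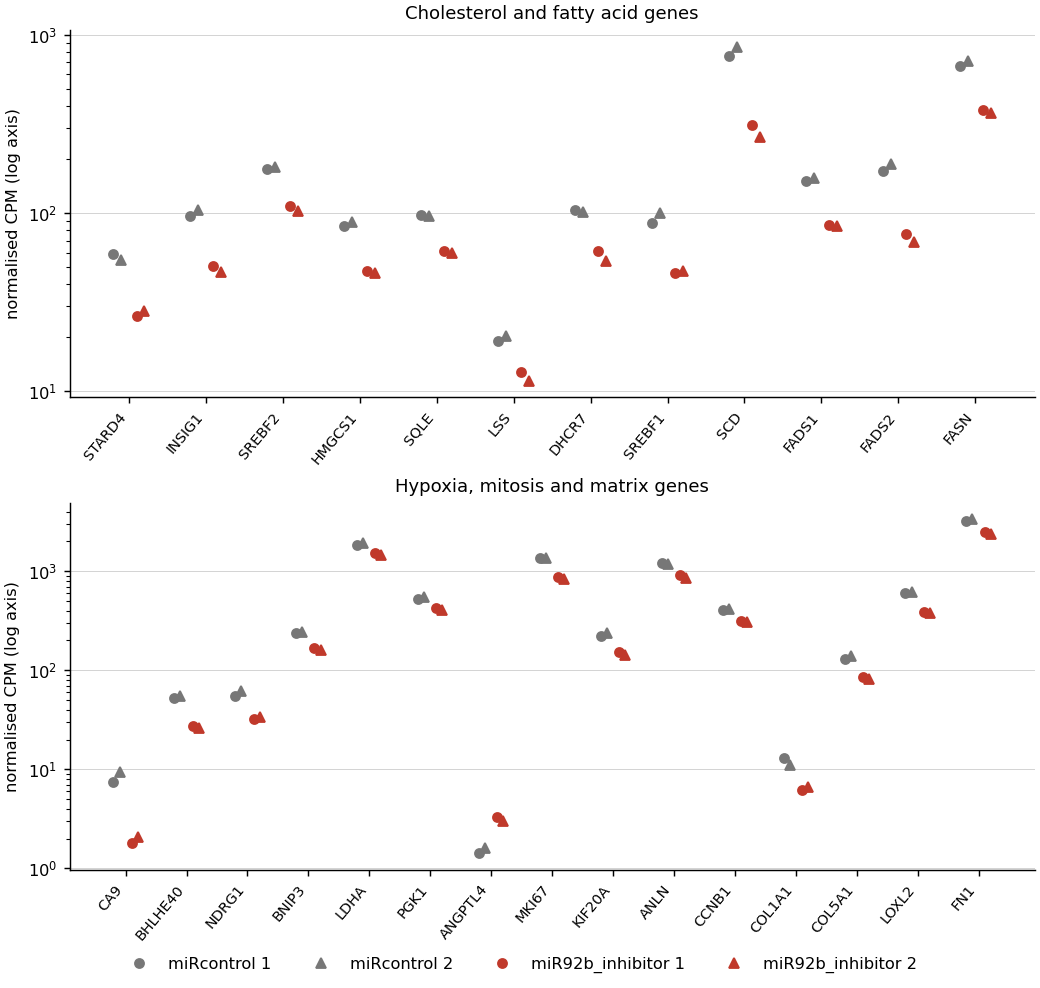
Normalised CPM on a log axis in each of the 4 libraries for cholesterol and fatty acid genes (upper panel) and for hypoxia, mitosis and matrix genes (lower panel), with colours and symbols for group and library. Both red points (miR92b_inhibitor) lie below both grey points (miRcontrol) for every gene drawn except ANGPTL4, for which they lie above.

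Hypoxia-responsive genes, which HIF transcription factors induce when oxygen is low, were mostly lower. Of 29 tested, 20 fell and 5 rose, beside 18.2% and 17.5% of all genes, and the median was -0.29. CA9, a carbonic anhydrase of the cell surface that acidifies the medium (chr9:35673928-35681159), measured 7.44 and 9.49 CPM in miRcontrol and 1.81 and 2.08 CPM in miR92b_inhibitor. Its fall of 2.11 (SE 0.20, edgeR adjusted p = 9.32e-12) was the only one in the list of 2-fold or more. BHLHE40, a transcriptional repressor, measured 52.7 and 54.7 against 27.3 and 26.4 CPM and fell by 0.998 (SE 0.066, edgeR adjusted p = 6.82e-17), just under 2-fold. NDRG1 fell by 0.83 (SE 0.072, edgeR adjusted p = 6.11e-13), the mitophagy receptor gene BNIP3 by 0.56 (SE 0.043, edgeR adjusted p = 7.77e-15) and the glycolytic gene LDHA by 0.34 (SE 0.033, edgeR adjusted p = 1.37e-11). The 5 that rose were ANGPTL4, at 1.43 and 1.61 against 3.33 and 3.01 CPM and a rise of 1.05 (SE 0.25, edgeR adjusted p = 0.000603), and VEGFA, ADM, HIF1A and EPAS1, at 0.41, 0.36, 0.15 and 0.24. Among genes of acid and base transport, SLC16A3, a lactate exporter, fell by 0.48 (SE 0.04, edgeR adjusted p = 2.65e-13), and with CA9 and ATP1B1 it made up the 3 of 10 that fell, while SLC4A7 alone rose, by 0.16, and was not called without the second library of either group.

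The promoter of CA9 is shown because it fell most in the list. The core word ACGTG of the hypoxia response element occurs there once, on the minus strand and just before the start, and is marked in capitals.
CA9, chr9:35673678-35673977 (+): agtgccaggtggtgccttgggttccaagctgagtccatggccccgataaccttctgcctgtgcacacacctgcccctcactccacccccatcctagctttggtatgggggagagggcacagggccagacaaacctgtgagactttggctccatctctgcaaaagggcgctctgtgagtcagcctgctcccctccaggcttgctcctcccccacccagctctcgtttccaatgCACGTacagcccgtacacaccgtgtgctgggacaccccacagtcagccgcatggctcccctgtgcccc
The word is short and was found in 13 of 27 matched promoters of the list (48.1%) and in 2754 of all 10434 (26.4%). This list, too, holds known responsive genes, was chosen with earlier results known and was counted over tested members. Its share is not read as a result of these libraries.

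Genes of mitosis fell by small amounts. Of 24 tested, 22 fell, none rose and none changed 2-fold, with a median of -0.31, where 18.2% of all genes fell and 17.5% rose. MKI67, the Ki-67 protein that coats mitotic chromosomes, measured 1345 and 1360.3 CPM in miRcontrol and 866 and 829 CPM in miR92b_inhibitor and fell by 0.67 (SE 0.033, edgeR adjusted p = 3.43e-21). KIF20A, a kinesin of cytokinesis, fell by 0.62 (SE 0.043, edgeR adjusted p = 4.64e-16), ANLN by 0.43 (SE 0.036, edgeR adjusted p = 2.18e-13) and NUSAP1 by 0.43 (SE 0.039, edgeR adjusted p = 1.92e-12). The 2 that did not pass were BUB1, at -0.081, and CDC20, at 0.058. Replication genes gave 10 lower and 2 higher of 24 (median -0.10; 1 higher without the second control library), with TYMS lower by 0.30 (SE 0.055, edgeR adjusted p = 1.79e-05). Since RNA was taken from whole cultures, fewer cells of a state and less RNA per cell cannot be told apart.

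Of 24 genes that p53 induces, 6 were higher and 8 lower, beside 17.5% and 18.2% of all genes, and 5 and 4 were lower without the first control and the second inhibitor library. CDKN1A, the cell cycle inhibitor p21, measured 95.5 and 94.8 against 64.7 and 67.2 CPM and fell by 0.53 (SE 0.053, edgeR adjusted p = 3.04e-11), whereas the pro-apoptotic gene PMAIP1 rose by 0.50 (SE 0.058, edgeR adjusted p = 1.42e-09). In the BCL2 family 8 of 16 rose and 2 fell. Besides BCL2A1 these included the anti-apoptotic gene BCL2L1, higher by 0.33 (SE 0.043, edgeR adjusted p = 2.9e-08), and the pro-apoptotic genes BOK and BAX, lower by 0.33 (SE 0.059, edgeR adjusted p = 1.79e-05) and 0.23 (SE 0.064, edgeR adjusted p = 0.00357). BAX was not called without the second control or the second inhibitor library. Without the first library of either group, 3 of the 16 were called higher.

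Extracellular matrix genes fell, with 14 of 23 lower and 2 higher (median -0.25), beside 18.2% and 17.5% of all genes. Fibronectin, FN1, measured 3181 and 3347 CPM in miRcontrol and 2489.8 and 2368 CPM in miR92b_inhibitor and fell by 0.43 (SE 0.034, edgeR adjusted p = 5.32e-14). COL5A1 fell by 0.70 (SE 0.05, edgeR adjusted p = 1.09e-15) and the collagen crosslinking enzyme gene LOXL2 by 0.66 (SE 0.035, edgeR adjusted p = 5.24e-20). One of the 2 that rose was LAMB3, a laminin chain of the epithelial basement membrane, at 0.42. Targets of TGF-β and YAP split (7 higher and 6 lower of 22), with the ligand gene TGFB2 lower by 0.70 (SE 0.045, edgeR adjusted p = 2.97e-17) and TGFBI lower by 0.54 (SE 0.035, edgeR adjusted p = 2.97e-17). The smooth muscle protein gene TAGLN measured 57.5 and 54.3 against 28.7 and 29.3 CPM and fell by 0.95 (SE 0.064, edgeR adjusted p = 1.34e-16), while SNAI2, a repressor of epithelial genes, rose by 0.61 (SE 0.078, edgeR adjusted p = 1.56e-08) and VIM by 0.16 (SE 0.032, edgeR adjusted p = 0.000109). Over the mesenchymal markers 4 of 12 rose and 3 fell, and of the 13 epithelial markers 4 fell (KRT19, KRT7, CLDN1 and OCLN, from -0.68 to -0.15) and none rose. Without the first control library 2 of the 13 were lower, and KRT7 (-0.091), CLDN1 (-0.15) and OCLN (-0.28) were not called.

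Metallothionein and zinc genes gave 4 higher and none lower of 7, with MT2A at 0.42 (SE 0.04, edgeR adjusted p = 5.64e-12). Shares over all genes, for this and the next lists, were 17.5% higher and 18.2% lower against miRcontrol. Against the mean of the single mimics they were 27.7% and 26.5%. Without the first control library MT1E and MT1L were not called and the list gave 2 higher and 1 lower, and against the mean of the single mimics it gave 1 higher and 5 lower. The microRNA machinery gave 5 higher and 5 lower of 15, including DICER1 at 0.24, AGO4 at -0.47 and DROSHA at -0.25. These fell to 2 higher without the second control library, to 3 lower without the first, and to 3 each way without the second inhibitor library. Neuroendocrine markers, which small cell lung cancers express, gave 2 lower (ENO2 at -0.37 and UCHL1 at -0.14) and none higher of 6, or 1 lower without the second control or the first inhibitor library, with CHGA and INSM1 at 0 counts in all 4 libraries. Housekeeping genes gave 4 higher and 4 lower of 12 (2 higher without the first inhibitor library), with ACTB at -0.28 and TUBB at -0.54. The macrophage marker CD68, a lysosomal protein that epithelial cells also make, measured 26.3 and 27.0 against 38.8 and 40.7 CPM and rose by 0.58 (SE 0.077, edgeR adjusted p = 5.08e-08). It made up most of the summed level of the 10 immune markers, 27.1 and 28.5 CPM in miRcontrol and 39.9 and 42.1 CPM in miR92b_inhibitor, whose part in the cytokine and interferon values was not tested.

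**Figure D4:**
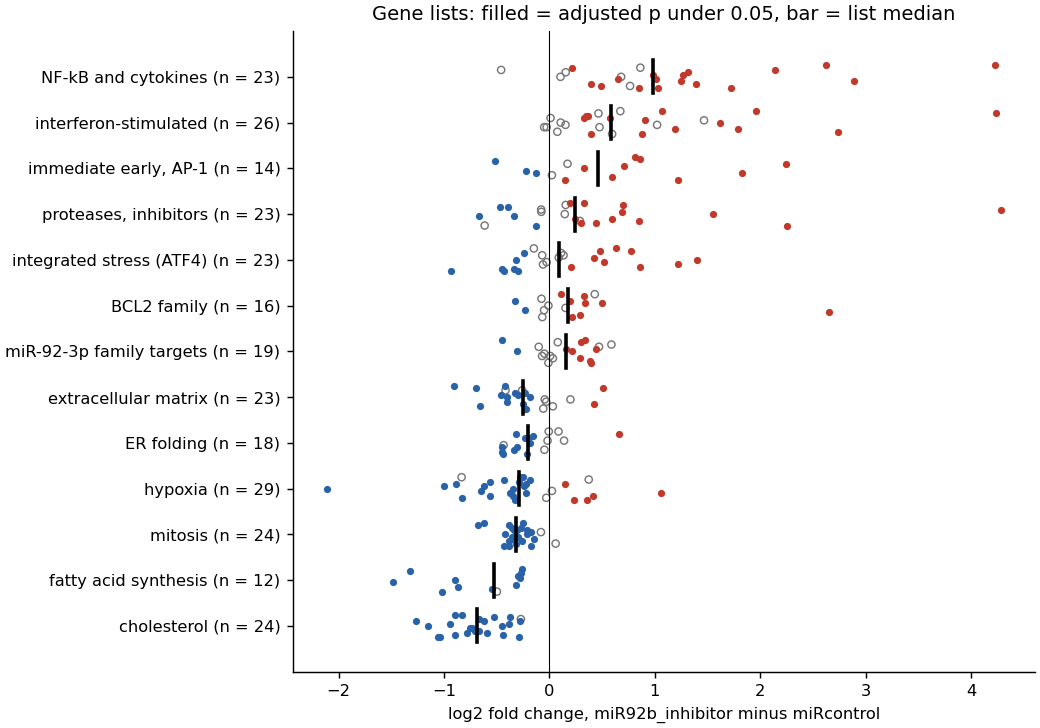
Log2 fold changes of miR92b_inhibitor over miRcontrol (x axis) for the tested members of 13 gene lists (y axis), 1 point a gene; filled points have an adjusted p under 0.05 (red higher, blue lower), open circles do not, and black bars are list medians. The bars run from 0.98 for NF-κB and cytokine genes to -0.69 for cholesterol genes, and no cholesterol gene lies above 0.

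Several of the largest differences were at low levels. LOC107986196, a locus of no given function, measured 0.515 and 0.239 CPM in miRcontrol and 9.63 and 10.8 CPM in miR92b_inhibitor and rose by 4.73 (SE 0.30, edgeR adjusted p = 2.61e-17). CCDC168 had 12 and 8 counts in miRcontrol and 39 and 72 in miR92b_inhibitor, and BEX2 4 and 6 counts in miRcontrol and 27 and 28 in miR92b_inhibitor. They rose by 2.40 (SE 0.37, edgeR adjusted p = 8.31e-07) and 2.38 (SE 0.50, edgeR adjusted p = 0.000159). Among the falls, TTC9 had 36 and 34 counts in miRcontrol and 9 and 9 in miR92b_inhibitor and fell by 1.99 (SE 0.37, edgeR adjusted p = 3.03e-05), and PIK3IP1, an inhibitor of PI3 kinase, had 30 and 19 counts in miRcontrol and 5 and 9 in miR92b_inhibitor and fell by 1.84 (SE 0.44, edgeR adjusted p = 0.000801). FER1L4, LOC105370363, SAMD11, LOC105372708, FZD9 and PCDHGB5 fell by between 1.61 and 1.84 at mean levels in miRcontrol between 1.05 and 4.34 CPM. G0S2, an inhibitor of triglyceride breakdown, stood at a higher level, with 50.9 and 43.0 against 161 and 168 CPM, and rose by 1.81 (SE 0.059, edgeR adjusted p = 2.7e-28).

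Read-through symbols, which join the exons of neighbouring genes, made up 11 of the 147 higher and 7 of the 138 lower genes. The share of such symbols among all tested genes is not given here, so a comparison with background cannot be made. Read counts of these symbols are uncertain because reads of the component genes can be assigned to them. COMMD3-BMI1 had 0 and 0 counts in miRcontrol and 55 and 34 in miR92b_inhibitor. Against a floor of 3 counts per library it was at least 14.5-fold higher between these libraries. In other groups the libraries disagreed, at 4.92 and 0 CPM in miR3124_mimic, 7.70 and 0 in miR200b_mimic and 1.22 and 0 in the 3-miRNA mixed group. The bound does not cover such disagreement within a group. RPS10-NUDT3 had 0 and 10 counts in miRcontrol and 55 and 42 in miR92b_inhibitor, and CHURC1-FNTB 0 and 10 counts in miRcontrol and 21 and 39 in miR92b_inhibitor. The 2 controls disagreed for both. MINOS1-NBL1 had 31 and 74 counts in miRcontrol and 22 and 5 in miR92b_inhibitor and TMX2-CTNND1 19 and 36 counts in miRcontrol and 18 and 0 in miR92b_inhibitor. FSBP, which lies within the RAD54B locus, had 20 and 29 counts in miRcontrol and 0 and 0 in miR92b_inhibitor. Against the same floor FSBP was at least 8.48-fold lower. Its libraries disagreed in miR200b_mimic, at 0 and 1.90 CPM, so the same limit holds for this bound.

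In absolute terms, the largest differences in CPM among genes with an adjusted p under 0.05 were in very abundant transcripts. RNR2 and RNR1, the mitochondrial ribosomal RNAs, rose by 0.33 (SE 0.05, edgeR adjusted p = 5.75e-07) and 0.20 (SE 0.047, edgeR adjusted p = 0.000682). The 2 control libraries differed widely for both, RNR2 measured 15622 and 12087 CPM in miRcontrol and 18037 and 16888 CPM in miR92b_inhibitor, and RNR1 was not called without the second control library (edgeR adjusted p = 0.406). EEF1A1, an elongation factor, rose by 0.22 (SE 0.036, edgeR adjusted p = 2.02e-06). The actin genes ACTB and ACTG1 fell by 0.28 (SE 0.03, edgeR adjusted p = 3.42e-10) and 0.27 (SE 0.031, edgeR adjusted p = 1.21e-09), and the mitochondrial genes COX1 and ND4 by 0.14 (SE 0.033, edgeR adjusted p = 0.000936) and 0.22 (SE 0.031, edgeR adjusted p = 1.33e-07).

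Around the miR-92b hairpin, MUC1, a membrane mucin (chr1:155185824-155192915), measured 3.78 and 3.88 CPM in miRcontrol and 1.28 and 2.03 CPM in miR92b_inhibitor and fell by 1.20 (SE 0.27, edgeR adjusted p = 0.000344). KRTCAP2 rose by 0.29 (SE 0.074, edgeR adjusted p = 0.00177), whereas MTX1 and THBS3, at 0.17 and -0.067, did not pass. Without the second inhibitor library KRTCAP2 was not called (0.20, edgeR adjusted p = 0.0975) and MTX1 was (0.40, edgeR adjusted p = 0.0187). The host transcript of the miR-17 to miR-92a cluster, MIR17HG, stood at -0.31 and did not pass.

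Genes reported as targets of the miR-25/92 family were more often higher than lower, by small amounts. Of 20 listed, 19 were tested, 8 rose and 2 fell, none by 2-fold, against 17.5% and 18.2% of all genes, and the median was 0.15 beside -0.0061 over all genes. Without the second inhibitor library 5 rose. Against the mean of the single mimics 5 of the 19 were higher and 8 lower, where 27.7% and 26.5% of all genes were. ITGA6, an integrin chain, measured 383 and 367 CPM in miRcontrol and 455 and 466 CPM in miR92b_inhibitor and rose by 0.30 (SE 0.036, edgeR adjusted p = 6.04e-09). NLK, a kinase of the Wnt pathway, measured 34.5 and 33.7 against 41.7 and 47.6 CPM and rose by 0.39 (SE 0.071, edgeR adjusted p = 1.77e-05). KLF2 rose by 0.39 (SE 0.076, edgeR adjusted p = 6.37e-05) and FBXW7, a ubiquitin ligase subunit, by 0.33 (SE 0.093, edgeR adjusted p = 0.00368). RECK, a membrane inhibitor of metalloproteinases, fell by 0.45 (SE 0.10, edgeR adjusted p = 0.000543). ITGAV, another integrin chain, fell by 0.31 (SE 0.043, edgeR adjusted p = 1.39e-07) and its 3′UTR holds the same word. The sites are shown with the 7 bases that pair with the 3p seed in capitals (GENCODE v29 3′UTRs, GRCh38).
ITGA6, chr2:172504729-172504757 (+): ttaaactaaatGTGCAATagaaggtgatg
NLK, chr17:28196140-28196168 (+): aaacaaagatgGTGCAATatctttgtttt
KLF2, chr19:16327262-16327290 (+): ttttcaaaatgGTGCAATaatttaagtgg
FBXW7, chr4:152321268-152321296 (-): ttataacttaaGTGCAATaaaatgtgttt
ITGAV, chr2:186680457-186680485 (+): attgttctcaaGTGCAATataacaatgta
The genes with larger changes held the word in both directions. HDAC9, a histone deacetylase named after its values were seen, measured 31.6 and 29.2 against 77.1 and 83.0 CPM and rose by 1.40 (SE 0.065, edgeR adjusted p = 2.8e-22). The word was also found in the 3′UTRs of TRAF1 and EGR1, which rose, and of SCD and INSIG1, which fell.
HDAC9, chr7:18996720-18996748 (+): tgtttgtaatgGTGCAATattttatatca
TRAF1, chr9:120903247-120903275 (-): agtgcttttatGTGCAATggtgtcgtcca
EGR1, chr5:138468878-138468906 (+): tggcttgacatGTGCAATtgtgagggaca
SCD, chr10:100362977-100363005 (+): ctcagctggcaGTGCAATgcttgtagaag
INSIG1, chr7:155309285-155309313 (+): ttaaacttcaaGTGCAATgtatatgaaaa

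Across all genes, a 3′UTR was assigned to 12232 of the 14884. The word GTGCAAT, which pairs with the 3p seed, was present in 1604 of them. The median log2 fold change of these was -0.019, and that of the 10628 without the word -0.0082. Of the genes with the word 17.9% rose and 21.9% fell at an adjusted p under 0.05, and of those without it 19.7% and 20.8%. At the 2-fold threshold 11 of the 1604 with the word were higher and 20 lower, beside 81 and 87 of the 10628 without it. With 2 or more matches the median was -0.016 over 255 genes. The word CCGTCCC, which pairs with the 5p seed, was present in 512 genes with a median of -0.097, beside -0.0067 for the 11720 without it. Of the 512, 13.1% rose and 31.6% fell. By 2-fold or more, 1 of the 512 with this word was higher and 10 were lower, beside 91 and 97 of the 11720 without it. One of the 10 was ABCA3, a lipid transporter of the lung, at 29.9 and 31.2 against 14.5 and 13.1 CPM (-1.15, SE 0.091, edgeR adjusted p = 3.21e-14).

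The word of the 5p seed is rich in G and C, and so were the 3′UTRs that hold it. Their median GC content was 53.2%, against 41.9% without the word, and their median length 2284 bases against 1311. Fold changes fell with 3′UTR GC content whether or not the word was present, from medians of 0.034 in the lowest of 4 GC bins to -0.093 in the highest among genes without it. Genes with the word had medians of 0.063, 0.03, -0.036 and -0.13 from the lowest to the highest bin, with 289 genes in the highest. Those without it had 0.034, 0.021, -0.008 and -0.093. Genes with the 3p word had lower medians than those without it in all 4 bins, for example -0.052 against -0.001 in bin 3. After a linear fit to the length and the GC content of the 3′UTR was taken out, the difference in medians between genes with and without the 5p word went from -0.090 to -0.010. For the 3p word it went from -0.011 to -0.020. These values are a description over genes that share libraries, and no test was made of them.

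**Figure D5:**
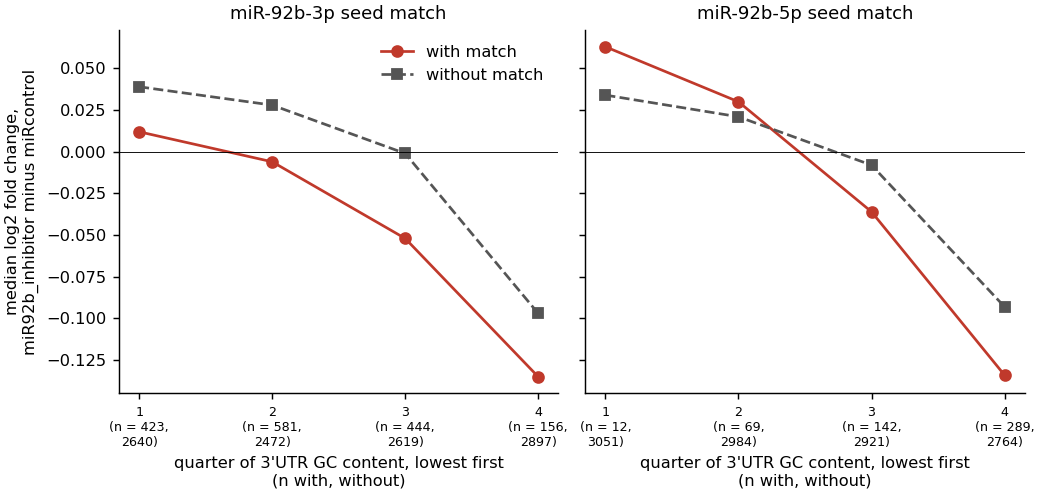
Median log2 fold change of miR92b_inhibitor over miRcontrol (y axis) for genes with (red) and without (grey) the 7-base match to the miR-92b-3p seed (left) or miR-92b-5p seed (right), in 4 bins of 3′UTR GC content from lowest to highest (x axis), with the number of genes under each. The medians fall from bin 1 to bin 4 in both groups of genes, to -0.14 and -0.13 with the 3p and the 5p word in bin 4, and only 12 genes with the 5p word are in bin 1.

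The inhibitor was also compared with the mean of miR3124_mimic and miR200b_mimic, which received other small RNAs at the same dose and time. In that contrast 295 genes were higher by 2-fold or more (1.98%) and 577 lower (3.88%), and at any fold 4116 (27.7%) and 3940 (26.5%). Of the 147 genes higher than miRcontrol, 77 were also higher than the mimics at both thresholds, and of the 138 lower genes 79 were also lower. Both contrasts use the same inhibitor libraries, so the counts are not independent.

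Cholesterol genes were lower than in the mimics for 23 of 24 (median -0.73). For this and the next lists, the shares over all genes in this contrast were 27.7% higher and 26.5% lower. For INSIG1 the difference was -1.28 (edgeR adjusted p = 5.03e-26). Of the NF-κB and cytokine genes 17 of 23 were higher and 2 lower. CXCL8 measured 29.6 and 28.7 CPM in miR3124_mimic and 8.75 and 9.26 CPM in miR200b_mimic, and was higher in miR92b_inhibitor by 2.65 (edgeR adjusted p = 7.75e-33). MMP1 was higher by 1.87 (edgeR adjusted p = 3.52e-40) and TRAF1 by 2.09 (edgeR adjusted p = 3.86e-20), while the protease list gave 11 higher and 11 lower of 23 (median -0.025). The ERBB and MAPK list gave 4 higher and 13 lower of 22 (median -0.29), with DUSP6 at -0.24 (edgeR adjusted p = 0.00173) and DUSP5 at -0.64 (edgeR adjusted p = 4.39e-14). IL1A and IL6 were not called different from the mimics, with 0.15 (edgeR adjusted p = 0.12) and 0.27 (edgeR adjusted p = 0.263). Of the interferon genes 11 of 26 were higher and 2 lower.

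Mitosis genes went the other way. Although 22 of 24 were below miRcontrol, 21 were above the mimics and none was below (median 0.29). MKI67 measured 582 and 565 CPM in miR3124_mimic and 810 and 811 CPM in miR200b_mimic, both under the inhibitor libraries, a difference of 0.31 (edgeR adjusted p = 6.3e-13). Hypoxia genes were mixed, with 9 of 29 higher and 15 lower. Over all genes 27.7% were higher than the mimics and 26.5% lower. NDRG1 was lower by 1.62 (edgeR adjusted p = 1.05e-26), whereas LDHA was higher than the mean of the mimics by 0.64 (edgeR adjusted p = 7.12e-24). The single mimics differed for LDHA, at 563 and 575 CPM in miR3124_mimic and 1628 and 1548 CPM in miR200b_mimic. At 1512 and 1455 CPM, miR92b_inhibitor lay between them. CA9 was lower by 1.05 (edgeR adjusted p = 2.14e-05) and TTC9 by 2.64 (edgeR adjusted p = 9.79e-10). HMOX1 was higher than the mimics by 2.08 (edgeR adjusted p = 4.57e-28).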

How the data were processed

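Poly(A) RNA libraries (NEBNext Ultra II Directional, paired-end) were made from BEAS2B cells 48 h after transfection. The study's methods name FastQC, FASTX_Trimmer and BBMap for cleaning reads, and the submitters' processing notes name TopHat and GRCh38. The counting tool, its strand setting and the annotation are not given in the sources used here. The deposited files hold raw whole-number counts per gene that the authors made for each library, with 58173 rows, of which 5771 repeat a symbol and were summed, leaving 52402. No column was pooled. Counting error is only part of the error of any value.

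Counts of all 10 libraries were fitted with edgeR 4.0.16 (R 4.3.3, limma 3.58.1): relative log expression factors (0.985 to 1.02), filterByExpr, glmQLFit and glmQLFTest, so that all 5 groups shared the estimate of spread, followed by Benjamini-Hochberg adjustment over 14884 genes. The study's methods state FPKM with geometric normalization and EdgeR. CPM were computed with the same factors. On counts drawn for this comparison over 14884 genes, 195 of 200 changed genes were recovered at an adjusted p under 0.05. In the same draw 10 unchanged genes were called. The changed genes had a mean of at least 1 CPM and changes of 2-fold or more, and counts were drawn from the fitted spread. These figures therefore do not cover smaller changes, genes of lower level or libraries that disagree more than the fit. Over 9772 genes of higher level, deviations of same-numbered libraries were not correlated between groups (-0.090 to 0.068). These correlations cannot exclude pairing for fewer genes or genes of low level. OAS1 measured 2.86 and 6.08 CPM in miR92b_inhibitor and 4.48 and 8.66 CPM in the 3-miRNA mixed group, higher in the second library of each. In miR3124_mimic it measured 2.73 and 1.87 CPM, and in miR200b_mimic 2.02 and 1.73 CPM.

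Alternatives were TMM, library totals, DESeq2 1.42.0, the edgeR exact test, a fit of the 2 groups, 2 other filters, a replicate block and leaving out each library. The genes named were the 12 largest rises and falls among called genes of at least 1 CPM, the 6 rises and falls with the smallest p, the 5 with the largest CPM difference in each direction, and in each list the called members and up to 4 others by p. Further genes were named after their values were seen. The comparison and the gene lists were chosen with earlier results of these data known. Some genes and 1 site are not reported here. For list members, counts and medians were used without set tests. Seed words were searched in GENCODE v29 3′UTRs, 1 a gene, from its longest coding transcript, and promoters and microRNAs came from RefSeq tables (GRCh38.p14). Python 3.11.15, pandas 2.3.3 and matplotlib 3.10.9 were used.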

Additional observations from a re-analysis of the deposited data

How the results depend on the processing

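The counts of genes past both thresholds (147 higher, 138 lower) moved by more than 1.5 times in 2 settings: 61 and 70 where each library had to hold 10 counts or more, under which fewer genes were tested, and 69 and 70 with the DESeq2 Wald test, for which the cause was not tested. With the unadjusted criterion (185 and 206), no filter on low counts gave 282 and 315 with more genes tested, the filter of 10 counts gave 61 and 70, and DESeq2 gave 126 lower. Leaving out 1 library gave 115 to 148 higher and 113 to 138 lower genes, or 188 to 240 and 187 to 245 unadjusted, and 1898 to 2070 and 1923 to 2205 at any fold. Between 166 and 185 of the 285 called genes were called again. Against the mimics these fits gave 287 to 321 higher and 544 to 597 lower. A fit of only the inhibitor and control groups was not run for that contrast, which needs the mimics.

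Of 648 list counts 617 stayed within 1.5 times. The 14 interferon genes became 8 to 15 with a library left out, 8 without the second inhibitor library. The other lead lists stayed in their range: 23 to 24 cholesterol genes lower, 16 to 18 NF-κB and cytokine genes higher, 20 to 23 mitosis genes lower, and for hypoxia 19 to 20 lower and 4 to 5 higher. Of 1927 values of named genes, 47 were no longer past the threshold, 2 newly passed and 5 changed sign. The sign changes were in genes that were not called: CD14 ranged from -0.17 to 0.66, MTX1 from -0.084 to 0.40 and POU2F3 from -3.16 to 4.03 with 1 library left out. FZD9, SAMD11, LOC105372708, PCDHGB5, MINOS1-NBL1, TMX2-CTNND1, CHURC1-FNTB, MT1L, BAX, OCLN, UCHL1, SLC4A7, MX1 and XAF1 were each no longer called with either of 2 or more single libraries left out, and DESeq2 did not call COMMD3-BMI1 (adjusted p = 0.216), MINOS1-NBL1, MT1L, MX1, OAS3, OCLN, RNR1 and SLC4A7.

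The difference in medians with and without the seed word was -0.021 (3p) and -0.11 (5p) over 3′UTRs of 200 to 5000 bases, and -0.020 and -0.010 with the linear trend removed. The replicate block gave 145 higher and 141 lower genes, of which 282 were among the 285 called without it, and changed no call of a named gene. Deviations of same-numbered libraries were not correlated over 9772 genes of higher level (-0.090 to 0.068), which does not exclude pairing for interferon-stimulated genes. Low counts limit CSF3, MMP9, MX2 and XAF1, for which 3 counts equal 0.16 to 0.18 CPM.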

Other observations

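3 groups of genes outside the report's lists were described after their values were seen, by counts and medians alone. Over all genes 17.5% were higher than miRcontrol and 18.2% lower. Ribosomal protein genes were higher by small amounts: 62 of 74 tested rose and 2 fell at an adjusted p under 0.05, none by 2-fold, with a median of 0.21 on the log2 scale, and their summed level was 32110 and 32143 CPM in miRcontrol and 37205 and 35830 CPM in miR92b_inhibitor. Against the mean of the single mimics 69 of the 74 were higher and none was lower, beside 27.7% and 26.5% of all genes. Host genes of small nucleolar RNAs, whose spliced transcripts carry little coding sequence, also rose, in 8 of 12. GAS5, one of them, measured 30.1 and 35.6 CPM in miRcontrol and 74.6 and 73.2 CPM in miR92b_inhibitor and rose by 1.17 (SE 0.066, edgeR adjusted p = 2.7e-19). The translation factor gene EIF4A1 rose by 0.40 (SE 0.032, edgeR adjusted p = 5.11e-14), and the nucleolar protein gene NPM1 by 0.24 (SE 0.036, edgeR adjusted p = 5.1e-07).

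The 13 protein genes of the mitochondrial genome went down slightly, with 11 lower, none higher and a median of -0.13, and summed to 34949 and 36631 CPM in miRcontrol and 32085 and 31545 CPM in miR92b_inhibitor. TXNIP, an inhibitor of thioredoxin that responds to glucose, measured 95.6 and 92.9 CPM in miRcontrol and 167 and 173 CPM in miR92b_inhibitor and rose by 0.85 (SE 0.046, edgeR adjusted p = 8.05e-20).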
